A study of Mus musculus with 10 samples.

Results

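The immediate-early genes Egr1, Fos, Fosb, Jun, Junb, Atf3, Ier2, Ier3, Dusp1 and Myc were examined in mouse liver. They were taken by gene symbol from the array's platform annotation, which gives each of them 1 probe, and make up 10 of the 16383 genes measured. The rule names symbols and sets no threshold, but the list was proposed with the log2 ratios of these genes in the 10 libraries in view. It counts as chosen by those ratios, so the values below are descriptions and support nothing by themselves. Immediate-early genes are transcribed within minutes of a growth factor, cytokine or stress signal, without new protein synthesis, mostly through MAP kinases acting on transcription factors already bound at their promoters. In liver they are known for the priming of hepatocytes after partial hepatectomy, for injury and acute phase responses, and for responding to handling and feeding. Several, Junb and Atf3 among them, are also known targets of TGF-beta.

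Total RNA was taken from the liver of 6 mice with 1 inactivated copy of Tgfbr2, the type II TGF-beta receptor (Tgfbr2+/-), and from 4 wild-type littermates, all on a chow diet. The titles call the Tgfbr2+/- mice males and state no sex for the wild-type mice. Strain, age, feeding state, time of day and the structure of the mutant allele are not given in the sources used here. Each library is a 2-colour array value against 1 common pool, made from the livers of 6 wild-type mice. All values are log2 ratios over that pool, where 0 is the level of the pool. A difference is the Tgfbr2+/- mean less the wild-type mean, given with the SE from the fit.

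That the ratios run as sample over pool is likely, though no label states it, and if every column ran the other way each value and difference would change sign. It assumes that the pool was the first channel, since the titles name it first, and that the second channel was divided by the first. The design text says that dyes were swapped, but the labels give Cy3 and then Cy5 for all 10 libraries, so they do not show which arrays were swapped or whether the deposited ratios allow for it. Beside that it rests on 1 of the 2 Tgfbr2 probes, which averaged -0.70 in Tgfbr2+/- and 0.17 in wild type. On that probe the library labelled Tgfbr2+/- replicate 4 was at 0.20, inside the wild-type range of -0.29 to 0.64, which goes against its label. The other probe hardly differed between the groups, averaging 0.06 in Tgfbr2+/- and 0.13 in wild type. There Tgfbr2+/- replicate 4, at -0.10, was below the wild-type range of 0.04 to 0.23, and Tgfbr2+/- replicates 3 (0.28) and 6 (0.24) were above it. Over all probes wild-type replicate 1 and Tgfbr2+/- replicate 5 correlated at r = -0.32 (Spearman's rho = -0.35), so either column could run the other way. As deposited, wild-type replicate 1 correlated with the other wild-type libraries at r = 0.04 to 0.13. Tgfbr2+/- replicate 5 correlated with the other Tgfbr2+/- libraries at r = -0.02 to 0.15. On the Tgfbr2 probe that the direction rests on these 2 libraries were at 0.42 and -0.86, each as its label asks with the columns as deposited. A single probe does not settle the direction of a column, and comparisons are repeated with one or the other of them turned in sign. Nothing in the labels says that the libraries differ in day or batch. A ratio gives no absolute level: whether a probe was above background cannot be read from these files. In whole liver, fewer cells of a type and less RNA per cell cannot be told apart.

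The 10 genes did not move as 1 block, either between the groups or between the libraries. Egr1 was the member with the widest range, 2.31 on the log2 scale (4.96-fold) from lowest to highest library, and it was the only one of the 10 in which the groups did not overlap. Dusp1 was next, with a range of 1.49 (2.82-fold), and Atf3 the third, with 1.06 (2.08-fold). Fos, Fosb and Junb stayed within 0.15 of the pool in every library. By limma, 0 of the 10 members passed an adjusted p of 0.05 between the groups, as did 0 of all 16383 genes (0%). Unadjusted p-values under 0.05 were found for 2 members, Egr1 and Atf3, and for 908 genes (5.54%).

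**Figure D1:**
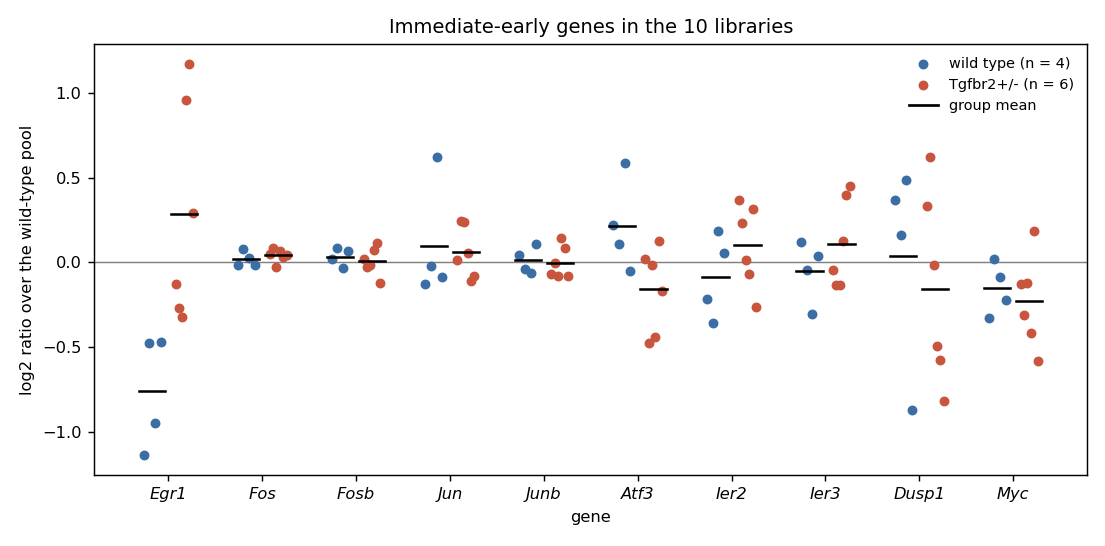
Log2 ratio over the wild-type pool for the 10 immediate-early genes, 1 point per library, with wild type (n = 4) and Tgfbr2+/- (n = 6) side by side and black bars for group means. Egr1 spans -1.14 to 1.17 with no overlap between the groups. Dusp1 spans -0.87 to 0.48 in wild type and -0.82 to 0.62 in Tgfbr2+/-, and Fos, Fosb and Junb lie close to 0.

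Egr1 encodes a zinc finger transcription factor that serum response factor and its ETS partners switch on downstream of the ERK pathway. In the wild-type libraries its log2 ratio was -1.14, -0.48, -0.95 and -0.47 for replicates 1 to 4. In the Tgfbr2+/- libraries it was -0.13, -0.27, -0.32, 0.96, 1.17 and 0.29 for replicates 1 to 6. All 4 wild-type livers thus lay below the pool of wild-type liver, and each lay below all 6 Tgfbr2+/- livers, of which 3 were above the pool. The means were -0.76 ± 0.34 (SD, n = 4) and 0.28 ± 0.65 (SD, n = 6). The difference of 1.04 ± 0.31, or 2.06-fold, did not pass over all genes (limma adjusted p = 0.650). Groups that do not overlap were found for 177 genes (1.08%), 119 of them higher in Tgfbr2+/- (0.726%), and 952 genes (5.81%) had all 4 wild-type libraries under the pool.

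A few libraries and the unsettled directions bear on the size of the Egr1 difference. Tgfbr2+/- replicates 4 and 5 held its highest values, and without both the difference was 0.65. It was 0.47 after turning the sign of wild-type replicate 1, and 0.65 after turning Tgfbr2+/- replicate 5 instead. In both of these cases the groups overlapped, so that 0 members were without overlap. That overlap was fixed by the turning itself, since these libraries held the lowest and the highest Egr1 value. Groups without overlap were then found for 79 genes (0.482%) with wild-type replicate 1 turned and 104 (0.635%) with Tgfbr2+/- replicate 5 turned. With each library left out in turn the Egr1 difference was 0.86 to 1.16. Markers of Kupffer cells, which are liver macrophages, also went with the groups: the mean log2 ratio of the 9 measured markers was -0.25 to -0.14 in wild type and -0.06 to 0.35 in Tgfbr2+/-, and 8 of the 9 had positive differences. These marker means overlapped between the groups as well with either column turned. They were at -0.25 to 0.15 in wild type with wild-type replicate 1 turned and from -0.17 in Tgfbr2+/- with Tgfbr2+/- replicate 5 turned. As for Egr1, that overlap was fixed by the turning itself, since these libraries were at -0.15 and 0.17 as deposited. The part of Kupffer cells in the Egr1 values was not tested.

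The AP-1 factors are the dimers that Fos and Jun proteins form on DNA, and Fos, Fosb, Jun and Junb are their classic immediate-early members. Fos was at -0.01, 0.08, 0.02 and -0.02 in wild type and at -0.03 to 0.09 in Tgfbr2+/- (median 0.05). Its SD over the 10 libraries, 0.04, was at the 2.0th percentile of all genes, so it was among the flattest probes on the array. Fosb was at 0.02, 0.08, -0.03 and 0.07 in wild type and at -0.12 to 0.11 in Tgfbr2+/-. Junb, whose protein restrains Jun, was at 0.04, -0.04, -0.06 and 0.11 in wild type and at -0.08 to 0.14 in Tgfbr2+/-. The groups overlapped for these 3 genes, with differences of 0.02 ± 0.04 for Fos, -0.03 ± 0.05 for Fosb and -0.01 ± 0.06 for Junb. A flat ratio can come from a steady level or from a probe near background, and the ratios do not separate these. Of all genes 3550 (21.7%) stayed within 0.15 of the pool in every library, as did these 3 of the 10 members.

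Jun, the partner of Fos in AP-1, was at -0.13, -0.02, 0.62 and -0.09 in wild-type replicates 1 to 4. Wild-type replicate 3 stood apart from the other 3, and the Tgfbr2+/- libraries lay between -0.11 and 0.24 (median 0.04). The difference was -0.04 ± 0.14 with all libraries, and leaving out each in turn moved it from -0.11 to 0.14. Atf3, a stress-induced repressor of the same bZIP class, was at 0.22, 0.11, 0.58 and -0.05 in wild type. In Tgfbr2+/- it was at 0.02, -0.48, -0.02, -0.44, 0.13 and -0.17. Of the 6 Tgfbr2+/- livers 3 were below all wild-type livers, and the other 3 overlapped them. The Atf3 means were 0.22 ± 0.27 (SD, n = 4) and -0.16 ± 0.25 (SD, n = 6). They differed by -0.38 ± 0.15, which is 1.30-fold (limma adjusted p = 0.809). It was -0.27 with wild-type replicate 1 turned in sign and -0.42 with Tgfbr2+/- replicate 5 turned. Atf3 and Egr1, the members with the largest differences, thus pointed in opposite directions.

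Promoters are shown for genes at both ends of this range, the flat Fos, Fosb and Junb and the widely ranging Dusp1, because they share a short motif while their ratios differ. The sequences are the 250 bases before the start of the gene, 5′ to 3′ on the gene's strand, from RefSeq (GRCm38.p6), and capitals mark TGACG on either strand, the core of the cAMP response element, which CREB and ATF proteins bind.
Fos (chr12:85473640-85473889, plus strand): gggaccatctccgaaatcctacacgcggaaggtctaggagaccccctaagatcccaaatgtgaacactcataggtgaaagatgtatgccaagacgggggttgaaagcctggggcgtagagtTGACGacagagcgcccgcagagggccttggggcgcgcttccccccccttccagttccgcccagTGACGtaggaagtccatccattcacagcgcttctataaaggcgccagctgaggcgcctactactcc
Fosb (chr7:19310046-19310295, minus strand): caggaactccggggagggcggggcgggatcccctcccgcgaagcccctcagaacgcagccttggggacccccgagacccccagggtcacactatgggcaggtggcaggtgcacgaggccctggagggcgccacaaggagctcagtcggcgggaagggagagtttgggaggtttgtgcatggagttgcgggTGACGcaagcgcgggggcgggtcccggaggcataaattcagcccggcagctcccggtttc
Junb (chr8:84978749-84978998, minus strand): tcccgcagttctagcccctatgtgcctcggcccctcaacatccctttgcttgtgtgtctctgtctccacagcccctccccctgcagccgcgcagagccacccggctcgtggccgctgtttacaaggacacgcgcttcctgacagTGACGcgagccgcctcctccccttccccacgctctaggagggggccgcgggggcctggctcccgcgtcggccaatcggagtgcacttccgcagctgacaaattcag
Dusp1 (chr17:26508473-26508722, minus strand): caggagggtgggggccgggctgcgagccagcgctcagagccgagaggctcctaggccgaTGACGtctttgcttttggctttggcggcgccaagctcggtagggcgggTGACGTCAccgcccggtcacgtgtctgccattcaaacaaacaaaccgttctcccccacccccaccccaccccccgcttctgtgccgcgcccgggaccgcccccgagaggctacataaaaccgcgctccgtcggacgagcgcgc
Of the 10 members 7 have an entry in the promoter table, and Egr1, Ier2 and Myc are not shown. TGACG on either strand was present in 5 of the 7 (Fos, Fosb, Junb, Atf3 and Dusp1) and in 17.8% of all 32851 entries cut to the same 250 bases. The full element TGACGTCA, which contains TGACG on both strands, was present in Dusp1 alone among the 7 and in 1.55% of all entries. Fos alone held TATAAA (12.4% of entries) and Fosb alone the EGR site GCGNGGGCG (4.70% of entries). The serum response element known as the CArG box (1.47% of entries), the AP-1 site TGANTCA (6.75%), the ETS core CCGGAA (12.0%) and the glucocorticoid receptor half-site AGAACA (16.1%) were in none of the 7 windows. These shares were not matched for base composition, and a match is a run of letters, not a bound site. Only exact matches inside the 250 bases were sought, so absence from a window does not mean that a gene lacks the element.

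Ier2 and Ier3 are small immediate-early genes, and Ier3 encodes a protein that acts in survival and ERK signalling. Ier2 was at -0.22, -0.36, 0.18 and 0.06 in wild type and at 0.37, 0.23, 0.01, -0.07, 0.31 and -0.26 in Tgfbr2+/-. The groups overlapped, with 3 Tgfbr2+/- livers above all wild-type livers and a difference of 0.18 ± 0.14. Ier3 was at 0.12, -0.05, -0.31 and 0.04 in wild type and at -0.04, -0.14, -0.14, 0.13, 0.40 and 0.45 in Tgfbr2+/-. Its difference was 0.16 ± 0.13, with the highest values in Tgfbr2+/- replicates 5 and 6. With Tgfbr2+/- replicate 5 turned in sign these differences were 0.08 for Ier2 and 0.03 for Ier3, and with wild-type replicate 1 turned they were 0.08 and 0.22.

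Dusp1 encodes a phosphatase that switches MAP kinases off again, and it is induced both by those kinases and by glucocorticoids. Its values were 0.37, 0.16, 0.48 and -0.87 in wild type and 0.33, 0.62, -0.01, -0.49, -0.58 and -0.82 in Tgfbr2+/-. High and low livers occurred in both groups, and the lowest of all was wild-type replicate 4. The group means, 0.04 ± 0.62 (SD, n = 4) and -0.16 ± 0.56 (SD, n = 6), differed by less than the spread within either group (-0.19 ± 0.32). Without wild-type replicate 4 the difference was -0.50, and it stayed negative when each other library was left out. With wild-type replicate 1 turned in sign it was -0.01, and with Tgfbr2+/- replicate 5 turned -0.00064. Its SD over the libraries, 0.56, was at the 99.3th percentile of all genes, and Egr1, at 0.75, was at the 99.6th.

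Myc, a transcription factor of cell growth that TGF-beta is known to repress in epithelial cells, was below the pool in 8 of the 10 libraries. It was at -0.33, 0.02, -0.09 and -0.22 in wild type and at -0.13, -0.31, -0.12, -0.42, 0.19 and -0.58 in Tgfbr2+/-. The groups overlapped over most of their range (-0.08 ± 0.13). Against the pool Myc averaged -0.23 ± 0.08 (SE) in Tgfbr2+/-, the member with the smallest p there, and did not pass (limma adjusted p = 0.217). In that comparison 0 of 10 members and 2 of 16383 genes passed (0.0122%), and 1 member and 2998 genes (18.3%) had an unadjusted p under 0.05. In wild type against the pool 0 members and 0 genes passed (0%), and at an unadjusted p under 0.05 there were 1 member, Egr1 (-0.76 ± 0.24 SE), and 678 genes (4.14%).

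**Figure D2:**
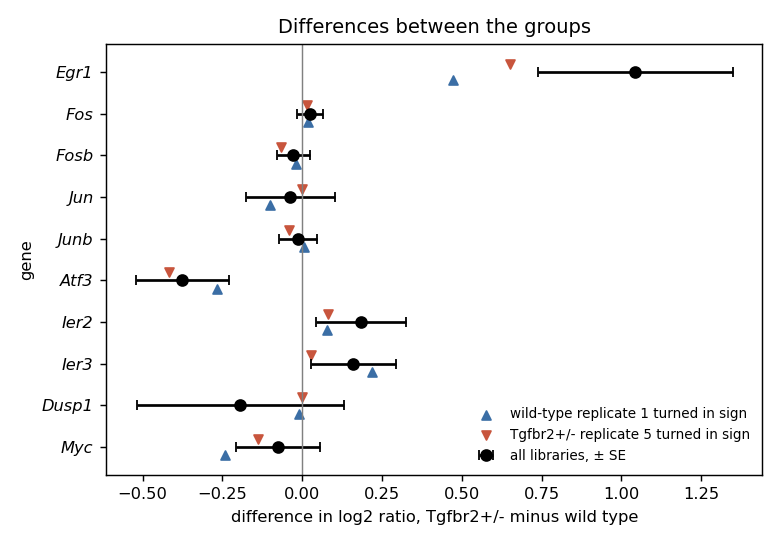
Difference in log2 ratio, Tgfbr2+/- minus wild type, for each member (black points, bars ± SE from limma; 6 against 4 libraries), with triangles for the same difference after the sign of wild-type replicate 1 or Tgfbr2+/- replicate 5 is turned. Egr1 lies at 1.04 and Atf3 at -0.38, and turning a column moves Egr1 to 0.47 or 0.65.

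The median difference of the 10 members was -0.02 and their median absolute difference 0.12, against 0.00 and 0.05 over all genes. Of the 10, 4 had positive and 6 negative differences, and of all 16383 genes 8618 had positive and 7765 negative ones. An absolute difference of at least 0.15 was found for 5 members and for 1955 genes (11.9%). A range of at least 1 over the 10 libraries was found for 3 members, Egr1, Dusp1 and Atf3, and for 685 genes (4.18%). The median SD over the libraries was 0.24 for the members and 0.11 for all genes, with 7 members at 0.22 or above and Fos, Fosb and Junb under the median of all genes.

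**Figure D3:**
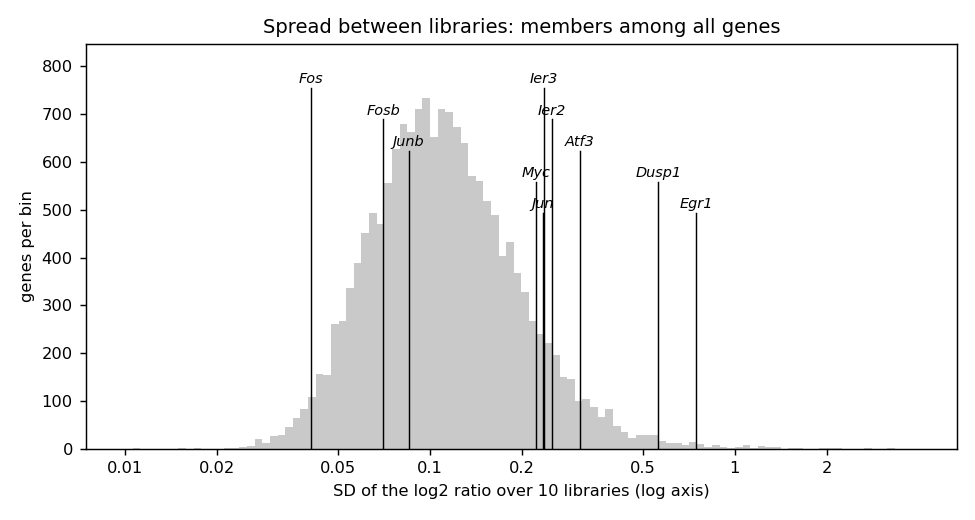
Histogram of the SD of the log2 ratio over the 10 libraries for all 16383 genes (horizontal axis logarithmic), with lines at the 10 members. Fos (0.04), Fosb (0.07) and Junb (0.09) lie at or below the bulk of genes, and Dusp1 (0.56) and Egr1 (0.75) in the right tail.

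Whether the members co-varied was read from their Pearson correlations over the 10 libraries, which share the same pool and are given as descriptions. Of the 45 pairs 28 were positive and 17 negative, with a median of 0.05 and a range from -0.76 to 0.66. Over all 134193153 pairs of genes the median was 0.00 and 50.1% were positive. Pairs at or above 0.5 made up 11.1% of the member pairs (5 of 45) and 10.4% of all pairs, and pairs at or below -0.5 made up 6.67% (3 of 45) and 9.84%. The members thus correlated with each other about as often as any genes of this array. With wild-type replicate 1 turned in sign 27 pairs were positive and the median was 0.07, and with Tgfbr2+/- replicate 5 turned 28 were positive and the median was again 0.07.

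**Figure D4:**
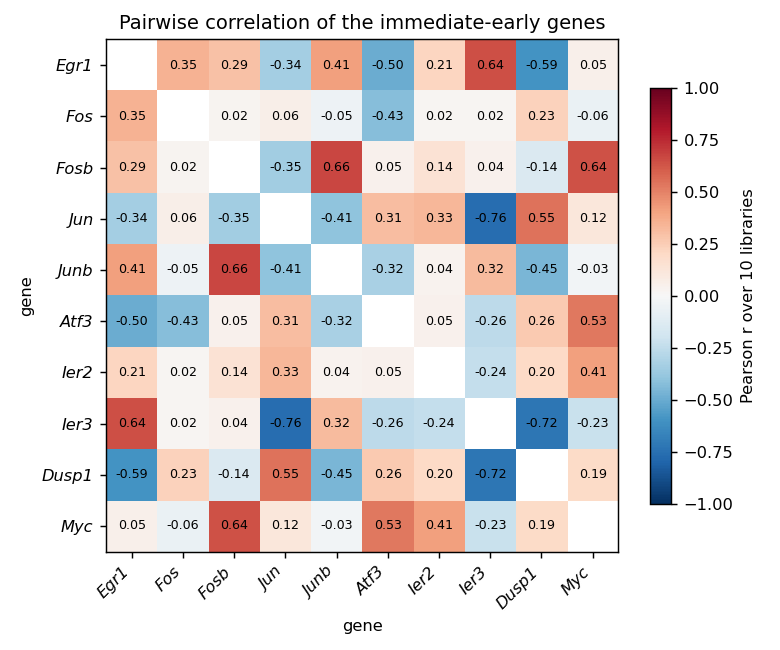
Pearson correlation of each pair of members over the 10 libraries (colour scale from -1 to 1). Red and blue cells are mixed: Fosb with Junb (0.66), Fosb with Myc (0.64) and Egr1 with Ier3 (0.64) are the highest, and Jun with Ier3 (-0.76) and Ier3 with Dusp1 (-0.72) the lowest.

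The pairs named next were picked by size after the values were seen. By the shares above, pairs of that size were about as common among all genes. Egr1 and Ier3 correlated at 0.64 (Spearman's rho = 0.58) and at 0.50 without the 2 libraries farthest from the median of Egr1. Egr1 and Dusp1 ran against each other (r = -0.59, rho = -0.47, and -0.48 without those libraries), and within the 6 Tgfbr2+/- libraries their r was -0.73. Ier3 was opposite to both Jun (r = -0.76, rho = -0.73, -0.62 without the 2 libraries farthest from the median of Jun) and Dusp1 (r = -0.72, rho = -0.65, -0.53 without the 2 farthest on Ier3). Jun and Dusp1 went together (r = 0.55, rho = 0.52), and r was 0.24 without the 2 libraries farthest on Jun. The highest value, that of Fosb and Junb (r = 0.66, rho = 0.66), is between genes that stayed within 0.15 of the pool. That of Fosb and Myc (r = 0.64) went to -0.04 without Tgfbr2+/- replicates 5 and 6 and so rests on them.

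The mean log2 ratio of the 10 members was -0.15 to 0.05 in wild type and -0.13 to 0.17 in Tgfbr2+/-. The groups overlapped, and the mean hid the opposite moves of Egr1 and Dusp1. The genes most like this mean over the 10 libraries were Hirip3 (r = 0.95), Olfr1205 (0.92), Efhc2 (0.91), Hfe (0.91), Fam229a (0.91), Mab21l1 (0.89), Mptx1 (0.89), Agtr1b (0.89), Get3 (0.88) and Igf2 (0.88). The most opposite were Depdc1b (r = -0.97), Pla2g2d (-0.92), Tmprss11a (-0.92), Igfbpl1 (-0.91) and Fam178b (-0.90). No gene of the immediate-early, MAP kinase, heat shock or glucocorticoid lists was among these 15.

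Dusp1 was set beside genes induced by glucocorticoids, a list that holds Dusp1 itself. Of the 11 other measured genes of that list 10 correlated positively with Dusp1 and 7 at 0.5 or above, with a median r of 0.65. Over all pairs of genes 50.1% were positive and 10.4% at 0.5 or above, and the share for Dusp1 alone was not taken. Over the genes of the other 5 lists the median r of Dusp1 was between -0.38 (heat shock genes) and 0.12 (MAP kinase phosphatases and feedback inhibitors). Tsc22d3, which encodes the glucocorticoid-induced leucine zipper GILZ, had the highest correlation with Dusp1 of all 16373 genes outside the members (r = 0.96, rho = 0.87, and 0.92 without wild-type replicate 4 and Tgfbr2+/- replicate 6). Its values were 0.20, 0.26, 0.45 and -0.82 in wild type and 0.53, 0.31, 0.04, -0.63, -0.46 and -1.06 in Tgfbr2+/-. Both genes were thus low in wild-type replicate 4 and Tgfbr2+/- replicates 4, 5 and 6. Zbtb16, chosen after its values were seen (r = 0.92), and the C/EBP factor Cebpd (r = 0.86) were close as well. Zbtb16 was nearly flat, however, at -0.08 to 0.09 over the libraries (SD 0.05, at the 6.5th percentile of all genes). For the immunophilin gene Fkbp5 r was 0.65, and for the clock gene Per1 it was 0.64. By r with Dusp1 Cebpd ranked 18, Fkbp5 422 and Per1 475 among the 16373 genes. Without wild-type replicate 4 and Tgfbr2+/- replicate 6 r was 0.70 for Cebpd, 0.43 for Fkbp5 and 0.18 for Per1. The count and the median of the list were not taken again without these libraries. With either column turned in sign the correlation of Dusp1 and Tsc22d3 was 0.95 or 0.96. The median r with the same list was -0.18 for Egr1, -0.40 for Ier3 and 0.41 for Myc. Pairs within the glucocorticoid list itself had a median r of 0.47.

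**Figure D5:**
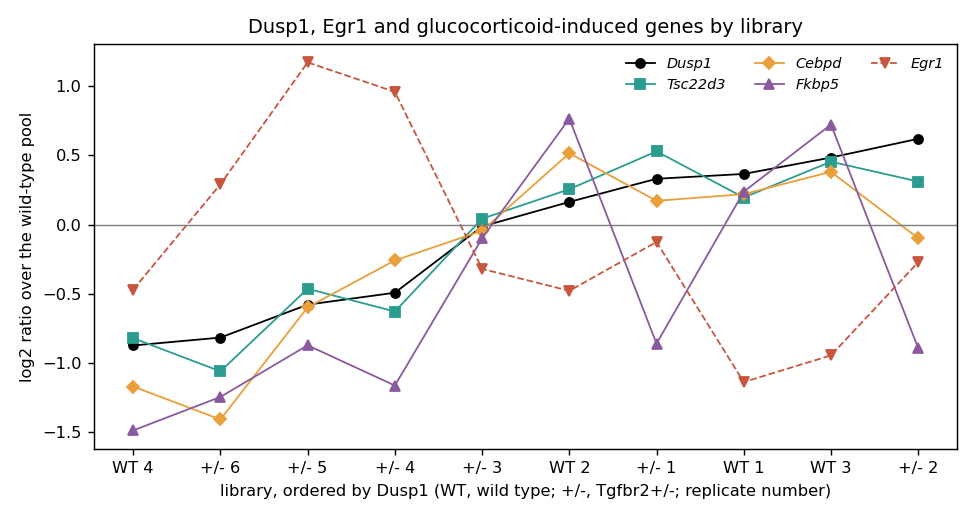
Log2 ratio over the pool of Dusp1, Tsc22d3, Cebpd, Fkbp5 and Egr1 in each of the 10 libraries, ordered by Dusp1 (lines join points of a gene and show no time course). Tsc22d3 follows Dusp1 from -0.87 in wild-type replicate 4 upward, and Egr1 is highest in Tgfbr2+/- replicates 4 and 5, where Dusp1 is at -0.49 and -0.58.

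None of the 12 glucocorticoid-induced genes passed between the groups, 4 having positive and 8 negative differences (median -0.14). Fkbp5 had the largest, -0.92 ± 0.40 (limma adjusted p = 0.895), and wild-type replicate 4, at -1.49, lay far below the 3 remaining wild-type livers (0.24 to 0.77). The Fkbp5 difference was -0.80 with wild-type replicate 1 turned in sign and -0.62 with Tgfbr2+/- replicate 5 turned. It was -1.43 to -0.68 with each library left out in turn. Mt2, a metallothionein, differed by -0.41 ± 0.25, Cebpd by -0.36 ± 0.36, Tsc22d3 by -0.23 ± 0.33, Per1 by -0.08 ± 0.09 and the kinase gene Sgk1 by 0.12 ± 0.07. With wild-type replicate 1 turned the differences were -0.25 for Cebpd, -0.14 for Tsc22d3 and 0.04 for Sgk1, and with Tgfbr2+/- replicate 5 turned they were -0.16, -0.08 and 0.12.

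Other immediate-early transcription factors were measured for 23 of 24 listed genes, and 0 passed in either direction (15 positive and 8 negative differences, median 0.02). Klf10, a TGF-beta-inducible repressor, had the largest at -0.65 ± 0.22 (limma adjusted p = 0.760). It was at 0.32, 0.03, 0.41 and -0.46 in wild type and at -0.40, -0.83, 0.10, -0.62, -1.10 and -0.58 in Tgfbr2+/-, so that wild-type replicate 4 and Tgfbr2+/- replicate 3 crossed the groups. The Klf10 difference was -0.49 with wild-type replicate 1 turned in sign and -0.28 with Tgfbr2+/- replicate 5 turned. It was -0.83 to -0.53 with each library left out in turn. The nearest relatives of the members had small differences: Egr2 differed by 0.16 ± 0.19, Jund by 0.15 ± 0.08, Fosl2 by 0.02 ± 0.06, Nr4a1 by 0.07 ± 0.06 and Klf6 by 0.10 ± 0.11. Srf, the serum response factor itself, differed by 0.02 ± 0.07.

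The other immediate-early effectors, 26 of 27 listed, had 20 positive and 6 negative differences (median 0.04) and 0 passed. That split was not stable to the direction of single columns: it was 12 positive and 14 negative with wild-type replicate 1 turned in sign, and 12 and 14 with Tgfbr2+/- replicate 5 turned. Ccn2, which encodes connective tissue growth factor, had the largest at -0.83 ± 0.42, and Gadd45g, a stress sensor, was next at -0.60 ± 0.63. Their order was the reverse with either column turned, at -0.72 for Ccn2 and -1.02 for Gadd45g with wild-type replicate 1 turned and at -0.33 and -0.50 with Tgfbr2+/- replicate 5 turned. Both had much of their spread inside the groups: Ccn2 was at -1.52 in wild-type replicate 4 and at 0.22 to 0.89 in the other 3. In Tgfbr2+/- Ccn2 was below the pool in every liver, at -1.51 to -0.09. With each library left out in turn the Ccn2 difference was -1.33 to -0.53, the largest without wild-type replicate 4, and that of Gadd45g -1.17 to -0.19. Btg2, an antiproliferative gene, differed by 0.30 ± 0.12, Gadd45b by -0.35 ± 0.27, Ier5 by 0.14 ± 0.10 and Ccn1 by 0.13 ± 0.10. The Btg2 difference was 0.07 with wild-type replicate 1 turned and 0.15 with Tgfbr2+/- replicate 5 turned. The mRNA decay factor Zfp36 differed by 0.03 ± 0.14 and Socs3, the brake on cytokine signalling, by 0.05 ± 0.08. Socs3 (r = 0.76) and Btg2 (r = 0.75) were the effectors whose values followed Egr1 most closely, at 0.32 and 0.49 without Tgfbr2+/- replicates 4 and 5. Over the 26 effectors the median r with Egr1 was 0.15, with 5 at 0.5 or above and 3 at -0.5 or below.

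The MAP kinase phosphatases and feedback inhibitors, 11 of 12 listed, had 5 positive and 6 negative differences (median -0.01) and 0 passed. Dusp8 differed by -0.23 ± 0.09, Dusp10 by 0.13 ± 0.09, Spry2 by -0.07 ± 0.16 and the ERK phosphatase gene Dusp6 by 0.02 ± 0.26. Of the kinases and factors upstream, 19 of 27 listed were measured, 14 with positive and 5 with negative differences (median 0.05), and 0 passed. Egfr, the receptor of epidermal growth factor, differed by 0.35 ± 0.17, the ETS factor Elk1 by 0.15 ± 0.09 and the SRF coactivator Mrtfa by 0.05 ± 0.08. The Egfr difference was 0.17 with wild-type replicate 1 turned in sign and 0.08 with Tgfbr2+/- replicate 5 turned, and that of Elk1 was 0.10 and 0.13. With Tgfbr2+/- replicate 5 turned the phosphatases and inhibitors had 8 positive and 3 negative differences.

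Heat shock genes, which respond to stress of proteins, were measured for 9 of 12 listed, 7 with positive and 2 with negative differences (median 0.06), and 0 passed. Hspa1a, an inducible Hsp70 gene, differed by 0.64 ± 0.26 (limma adjusted p = 0.856), Hsph1 by 0.18 ± 0.19 and Dnajb1 by 0.13 ± 0.07. The Hspa1a difference was 0.50 with wild-type replicate 1 turned in sign and 0.33 with Tgfbr2+/- replicate 5 turned, and the list then had 5 positive and 4 negative differences in both cases. Hspa1a was the heat shock gene that went most with Egr1 (r = 0.72, rho = 0.85, and 0.82 without Tgfbr2+/- replicates 4 and 5). By r with Egr1 Hspa1a ranked 447 among the 16373 genes outside the members. It was at -0.28, -0.18, -0.41 and 0.31 in wild type and at 0.04, 0.41, -0.07, 0.34, 0.93 and 1.35 in Tgfbr2+/-, with wild-type replicate 4 inside the Tgfbr2+/- range. The list as a whole did not follow Egr1, with a median r of 0.09 over its 9 genes.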

How the data were processed

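The authors deposited 1 column of log10 ratios per mouse, of sample and pool; scale, base and direction are inferred from the values (8 lie at exactly 2 or -2, a 100-fold limit) and stay unstated, while column medians of 0.0013 to 0.0047 show centring. Per the labels' protocols, RNA was column-purified, DNase-treated and amplified with aminoallyl chemistry; per the series design dye swaps were used. Scanner and normalization are not given in the sources used here. Array number, not read depth, limits precision.

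Ratios were multiplied by 3.32 to log2, with no further normalization and no missing value. Of 23438 probes 17726 carry 1 symbol, 50 several and 5662 none, and probes were averaged to 16383 genes. No symbol changed through the RefSeq table. Limma 3.58.1 in R 4.3.3 (lmFit, eBayes, two-sided) was fitted over all genes and libraries, with Benjamini-Hochberg adjustment over all genes and a threshold of 0.05; it was tested on simulated data. The tests against the pool leave out its spread and any dye bias. Replicates are separate mice per the design text.

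The members and lists were chosen with earlier results of these data known. Named genes are the members, genes picked by name, the 2 largest differences per list, and the 10 most and 5 least like the members' mean; listed genes without a single-symbol probe were not analysed here. Markers of hepatocytes, neutrophils, endothelial, stellate, lymphocyte and erythroid cells differed between the groups by a mean of -0.04, 0.17, 0.03, -0.13, 0.03 and 0.00, those of Kupffer cells by 0.34, with 0 markers past the threshold. Same-numbered wild-type and Tgfbr2+/- libraries were checked for pairing. Alternatives were normalization, centring, array weights, probe choice, a filter on flat genes, left-out libraries, turned columns and a replicate block.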

Additional observations from a re-analysis of the deposited data

Results flagged for a closer look

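In 7 of 114 groups of named genes 1 library stood far from the rest of its group by Dixon's 95% limit, and chance gives about 5% of groups. Among the members this was Jun in wild-type replicate 3 (0.62, others -0.13 to -0.02). The others were Egr2 in Tgfbr2+/- replicate 6 (0.96, others -0.22 to 0.19), Klf6 in the same library (0.45, others -0.09 to 0.06), Fosl2 in wild-type replicate 2 (0.12, others 0.05 to 0.06), Dusp6 in wild-type replicate 2 (-0.97, others 0.08 to 0.15), Nr4a1 in Tgfbr2+/- replicate 5 (-0.063, others 0.07 to 0.12) and Fkbp5 in Tgfbr2+/- replicate 3 (-0.10, others -1.25 to -0.86).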

How the results depend on the processing

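No member passed in any of the 3 comparisons under any alternative run; the filter on flat genes removed Fos. Between the groups 0 genes passed, and 0 to 10 with 1 library left out, the 10 without Tgfbr2+/- replicate 3. In Tgfbr2+/- against the pool 2 passed, and 0 to 48 with 1 library left out, the 48 again without Tgfbr2+/- replicate 3. That count was 10 with array weights, 1 with quantile normalization, 1 with wild-type replicate 1 turned in sign and 0 with Tgfbr2+/- replicate 5 turned. In wild type against the pool 0 passed, 0 to 1 with 1 library left out and 5 without Tgfbr2+/- replicates 4 and 5 together. The cause was not tested. The median pairwise correlation of the members lay between -0.03 and 0.11 over 18 alternatives. Of 180 alternative values of the members' differences 179 moved by less than 1 SD pooled within the groups (0.55 for Egr1) and 9 changed sign (5 of Junb, 3 of Jun and 1 of Dusp1). The exception was Egr1 with wild-type replicate 1 turned (0.47). Same-numbered libraries correlated at 0.09, 0.09, 0.30 and 0.01 over deviations from the group means, and differently numbered ones at -0.22 to 0.10. The numbers were not taken as pairs, but replicate 3 lay above that range, so the check does not settle it. With the replicate block 0 genes passed between the groups. Egr1 then differed by 0.82, Atf3 by -0.44 and Ier3 by 0.0029, and Jun (0.04) and Dusp1 (0.08) changed sign. The block was not run for the tests against the pool.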

Other observations

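Single genes most like Egr1 over the 10 libraries, chosen after values were seen, were in order Slc41a2 (r = 0.96), Gnai2 (0.94), Hpx (0.93), Poldip2 (0.92), Orm3 (0.92), Adcy4 (0.92), Npdc1 (0.92) and Saa2 (0.91). Without Tgfbr2+/- replicates 4 and 5 these were 0.86, 0.89, 0.88, 0.84, 0.76, 0.97, 0.80 and 0.69. The lowest was Nacc1 (r = -0.96). For Dusp1 the next after Tsc22d3 were Ube2d2a (r = 0.95) and Fgf12 (r = 0.94), and the lowest was Sesn3 (r = -0.95), of the sestrin family. These values are over 10 libraries that share 1 pool and are given without a test.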
